A study of Sus scrofa with 2 samples.

Results

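Tags of the same length as a listed microRNA that differ from it at exactly 1 internal base made up 8425 of the 93229 distinct sequences that the authors' lists match to miRNAs in pig testis. A tag is a distinct sequence with its read count, and an entry is the miRNA sequence, of whatever species, to which the authors' list assigns it. A tag was taken as a member when it had its entry's length and differed at 1 position that was neither the first base nor one of the last 2 bases. The 30-day list held 7720 members among 82288 tags (9.38%) and the 180-day list 3999 among 28643 (13.96%). Members took 262981 of 7525725 listed reads at 30 days (3.49%; 95% interval by the exact Clopper-Pearson method, 3.48 to 3.51) and 34604 of 852209 at 180 days (4.06%, 4.02 to 4.10). Tags identical to their entry took 63.6% and 59.4% of the reads.

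The series holds 2 small RNA libraries, 1 from sexually immature boars aged 30 days and 1 from sexually mature boars aged 180 days, all of the Junmu-1 breed. Each library was made from whole testis RNA pooled over 3 boars, so it has no replicate, and animals, cell types and library preparation cannot be told apart within it. The libraries compare these 2 pools and not the ages, and no p-value is given. Intervals cover counting error only, since reads after 15 PCR cycles without molecular identifiers are not independent molecules. In a bulk tissue, fewer cells of a type and less RNA per cell cannot be told apart. The labelled tissue was checked against markers: perfect tags of the gonadal miRNA miR-202 stood at 68481 and 110872 RPM (reads per 1000000 listed reads), and those of miR-34b, miR-34c and miR-449, which mark meiotic and later germ cells, at 10.8 and 34463. Smooth muscle miRNAs (6000 and 17175 RPM), striated muscle miRNAs (1428 and 6527) and red blood cell miRNAs (1687 and 3885) stood higher at 180 days, and white blood cell (128 and 151) and epithelial miRNAs (61.8 and 83.3) were low in both. The part of such cell types in the mismatch shares was not tested.

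A miRNA guides Argonaute proteins to messenger RNAs by pairing, and the bases from position 2 to 8 counted from its 5′ end, the seed, set most of its targets. A read that differs inside the miRNA can come from a pig gene that differs from the listed species, from an allele, from a related miRNA, from RNA editing, or from an error of copying or sequencing. Adenosine deaminases convert adenosine to inosine in double-stranded precursors, and inosine is read as G, so editing shows as A-to-G. Deamination of cytosine is read as C-to-T. Positions below count from 1 at the 5′ end, and a token such as C4T gives the entry's base, the position and the tag's base.

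The members on which the results turn are shown here from the deposited lists, with T for U, the entry first and the tag below it. The changed base is in capitals. The first set holds tags that were read more often than the entry in both libraries.
hsa-miR-509-5p entry: tactgcagaCagtggcaatca
hsa-miR-509-5p C10G: tactgcagaGagtggcaatca
age-miR-506 entry: aatggcgccCttctgagtaga
age-miR-506 C10T: aatggcgccTttctgagtaga
pbi-miR-508 entry: tgaTtgtcacctttttgagtaga
pbi-miR-508 T4C: tgaCtgtcacctttttgagtaga
mmu-miR-34b-3p entry: aatcactaaCtccactgccatc
mmu-miR-34b-3p C10T: aatcactaaTtccactgccatc
bfl-miR-100 entry: aacccgtagatccgaActtgtgt
bfl-miR-100 A16T: aacccgtagatccgaTcttgtgt
hsa-miR-379 entry: tggtagactAtggaacgtagg
hsa-miR-379 A10G: tggtagactGtggaacgtagg

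The second set holds tags read beside a common entry, of which miR-202-5p C4T was the most read, miR-26a T10C differed widely between the libraries, miR-411 A5G and miR-376c A6G are known editing positions, and let-7 shows a repeated change at position 6.
mmu-miR-202-5p entry: ttcCtatgcatatacttcttt
mmu-miR-202-5p C4T: ttcTtatgcatatacttcttt
hsa-miR-26a entry: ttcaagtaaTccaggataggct
hsa-miR-26a T10C: ttcaagtaaCccaggataggct
mmu-miR-411 A5G: tagtGgaccgtatagcgtacg
hsa-miR-376c A6G: aacatGgaggaaattccacgt
hsa-let-7d T6A: agaggAagtaggttgcatagtt
cel-let-7 A3C: tgCggtagtaggttgtatagtt

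Member reads were concentrated on few tags. The 3 most read members held 51363 reads at 30 days and 6945 at 180 days, while 2573 and 1750 members had 1 read. The lists shared 3294 member tags, which were 42.7% of the 30-day and 82.4% of the 180-day members and held 94.6% of the member reads in each library. Members fell under 384 miRNA names at 30 days and 269 at 180 days, and the 10 leading names held 66.1% and 59.8% of their reads. Over names with at least 1000 perfect reads, the share of member reads had a median of 4.81% at 30 days (92 names, 2.79 to 38.9%) and 4.99% at 180 days (46 names, 3.19 to 15.5%). The abundant let-7c had 3.33% and 3.96%, let-7f 2.95% and 3.55%, and let-7d 5.04% and 6.98%. The highest was miR-100 in both libraries, through a single tag described below.

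For each entry, position and change, called a site, the share was the member's reads over member plus perfect reads. It was examined where these reached 100 reads, and called high at 1% or more with its exact lower 95% limit also at 1% or more. High shares were found at 56 of 14804 possible sites at 30 days (0.378%) and at 18 of 8648 at 180 days (0.208%), with 11 sites high in both libraries. Of the 30-day sites, 27 had too few reads at 180 days to be examined. Sites with any member read had a median share of 0.0938% at 30 days and 0.131% at 180 days. Just inside the limit at 30 days was bta-miR-30a-5p C10T at 1.14% (lower limit 1.00), and just outside was gga-miR-10b C4T at 1.06% (lower limit 0.968). Entries of several species are nearly the same sequence, so sites repeat: the 44 high sites with a share under 50% at 30 days came to 26 when counted once per family, change and 4 surrounding bases.

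At 12 of the high sites at 30 days and 6 at 180 days the member was read more often than its entry. Of these entries, 0 of 12 and 1 of 6 were named for pig. Such entries were rare among members in general, with 114 of 7720 member tags at 30 days and 35 of 3999 at 180 days. Members at the 12 and 6 sites held 48011 of the 262981 member reads at 30 days and 6844 of the 34604 at 180 days. Among them were 3 miRNAs of the X-linked miR-506 to miR-514 group, known for expression in testis. hsa-miR-509-5p C10G had 12421 reads at 30 days against 2 of the entry, and 3670 against 0 at 180 days. Over tags of any start and length, the same base stood in 38650 of 38657 and 10448 of 10452 reads. age-miR-506 C10T had 775 reads against 1 and 394 against 2. pbi-miR-508 T4C, a change in the seed, had 224 against 0 and 132 against 0.

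mmu-miR-34b-3p C10T, the 3′ arm of a germ-cell miRNA, had 2 reads at 30 days and 678 at 180 days, and its entry was not read in either library. Over all tags that hold the first 14 bases, the member included, the changed form had 9 and 1227 reads. Other entries read only or almost only in the changed form were hsa-miR-374a* A9G (110 and 38 reads, entry 0 in both), hsa-miR-181a-2* T6C (106 against 2 and 8 against 0) and hsa-miR-379 A10G (159 against 1 and 3 against 1). The oan-miR-144* G11A tag, with 214 and 24 reads and none of its entry, matches the listed hsa-miR-144* exactly over the shorter of the 2 sequences. Entries since described as fragments of transfer RNA, miR-1260 and miR-1308, were also among them. hsa-miR-1260 T9G had 653 and 74 reads and hsa-miR-1261 T12A 329 and 58, with 0 of either entry. hsa-miR-1308 G5T had 524 reads against 91 at 30 days and 22 against 38 at 180 days.

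The most read member of the 30-day list matched entries of 2 miRNAs. bfl-miR-100 A16T had 32051 reads against 7325 of its entry at 30 days (81.4%, 81.0 to 81.8) and 1855 against 1650 at 180 days (52.9%, 51.3 to 54.6). The tag contains the listed hsa-miR-99a exactly, and miR-99a and miR-100 share their seed. In the pig gene table of Sscrofa11.1, MIR99A is followed by MIRLET7C. The tag nve-miR-100 A16T, 1 mismatch from hsa-miR-99a as well, had 445 reads against 23 and 21 against 2. In the same way ssc-miR-181b C12T, with 930 reads against 1547 (37.5%) and 115 against 83 (58.1%), contains the listed hsa-miR-181d. Members that hold or lie in another entry exactly numbered 109 at 30 days, with 34934 reads, and 65 at 180 days, with 2362 reads.

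The C4T change of mmu-miR-202-5p, a miRNA of gonadal somatic cells, lies in the seed and was the most read member beside an abundant entry. It had 6891 reads with 282879 of the entry at 30 days, a share of 2.38% (2.32 to 2.43), and 1420 with 58005 at 180 days, a share of 2.39% (2.27 to 2.52). The ratio of the shares was 1.00 (0.948 to 1.06). Over all tags that hold the first 18 bases, whatever their start, the share was 2.43% (2.38 to 2.48) and 2.42% (2.32 to 2.54). The 2 libraries therefore gave values that differed by less than their counting error. The chicken entry gga-miR-202* begins 1 base earlier, and its C5T tag, the same site, had 125 reads against 219 (36.3%) and 36 against 40 (47.4%). These are tags with an extra T before the first base of the mouse entry. The human entry hsa-miR-202*, 1 base longer at the 3′ end, with C4T had 32 against 696 (4.40%) and 4 against 78 (4.88%). In Sscrofa11.1, MIR202 lies between UTF1 and ADAM8 in gene order.

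Reads with C4T of miR-202-5p also carried other C-to-T changes at the 5′ end more often. Among tags that begin 1 base before the entry, the extra base was C in 96.2% of reads with the entry's base 4 at 30 days and in 94.2% at 180 days. It was T in 290 of 18134 of these reads (1.60%, 1.42 to 1.79) but in 145 of 390 reads with C4T (37.2%, 32.4 to 42.2). At 180 days it was T in 69 of 6313 (1.09%, 0.851 to 1.38) against 49 of 118 (41.5%, 32.5 to 51.0). Position 3 behaved likewise: C3T was found in 1.08% of same-length reads with the entry's base 4 and in 9.36% of those with C4T at 30 days, and in 1.01% and 10.9% at 180 days. Tags with both changes lie outside the members, which have 1. Tags with C3T alone (3081 and 592 reads) were not counted among the members or high sites of this entry either. Membership follows the entry the authors' list assigned, and the entry of these tags was not looked up. Farther along the miRNA no such rise with C4T was seen. C9T stood at 0.399% without C4T and 0.188% with it at 30 days, C15T at 0.263% and 0.130%, and C18T at 0.382% and 0.188%. At 180 days the values were 0.359% and 0.141% for C9T, 0.263% and 0.281% for C15T, and 0.364% and 0 of 1420 reads for C18T. As members on their own, C9T had 1132 and 209 reads, C18T 1084 and 212, and T11C 1076 and 236, all with shares of 0.359 to 0.405%. With tags of other lengths C18T came to 0.656% and 0.598%.

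A wide difference between the libraries at an abundant entry was T10C of miR-26a, a widely expressed miRNA. hsa-miR-26a T10C had 899 reads with 37889 of the entry at 30 days (2.32%) and 3 with 4486 at 180 days (0.0668%), a ratio of 0.0288 (0.00594 to 0.0845). The gga-miR-26a entry, 1 base shorter, had the same change in 129 reads with 3576 (3.48%) at 30 days. At 180 days it had 0 of 377 reads, which allows up to 0.796%, and the exact upper limit of the ratio was 0.285. Over all tags that hold bases 3 to 20, it stood in 1630 of 65130 reads (2.50%, 2.38 to 2.63) and 6 of 7801 (0.0769%, 0.0282 to 0.167). Another change of the same entry went the other way: A16C was at 0.0870% (33 reads) and 0.222% (10 reads). The pig gene MIR26A lies within CTDSP2 in Sscrofa11.1. As each library is a pool of 3 boars, a difference between the animals and a difference of age cannot be told apart.

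mmu-let-7i T12G showed a like contrast, with 145 reads with 6334 of the entry (2.24%) at 30 days and 1 with 683 (0.146%) at 180 days. Over tags that hold the first 20 bases the shares came closer, at 1.53% (219 reads) and 0.444% (7 reads). hsa-miR-532-5p C20G had 102 reads with 1306 (7.24%) at 30 days. At 180 days it had 0 of 156, which allows up to 1.92%, and the exact upper limit of the ratio was 0.332. That tag is 1 mismatch from the listed rno-miR-532-5p. Neither miR-26a T10C nor let-7i T12G is a C-to-T or A-to-G change of the entry, and the cause of these contrasts was not tested.

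Of the 44 high sites with a share under 50% at 30 days, 28 were C-to-T and 10 were T-to-G. Counted once per family, change and 4 surrounding bases, they came to 17 and 4, and the counts below keep such repeats. Another C stood next to the changed base at 24 of the 28 C-to-T sites, as it did at 42.0% of the 1084 possible C-to-T sites examined. At 180 days 8 of 12 such sites were C-to-T, 7 of them beside another C, against 39.4% of 599 possible sites. Within the first bases these were cfa-miR-125a C2T (113 reads with 6015, 1.84%, and 8 with 353, 2.22%), cfa-miR-125a C3T (1.60% and 1.94%), mmu-miR-125b-5p C2T (1.30% and 1.24%) and dre-miR-10a C4T (2.36% at 30 days, 0 of 42 reads at 180 days). In the middle of the miR-30 family, bta-miR-30e-5p C10T stood at 2.13% and 2.06%, bta-miR-30e-5p C11T at 2.41% and 2.27%, and bta-miR-30d C11T at 1.51% and 1.03%. Of the 10 T-to-G sites, 8 lay at position 19 or later, in entries of miR-181a, miR-181b and miR-221. These 8 repeat few sites in entries of several lengths and species. A preference of T-to-G for late positions was not tested. cfa-miR-181a T19G was at 2.31% and 2.05%, and bta-miR-221 T20G at 3.02% and 1.97%.

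A-to-G, the change that editing would give, was high at few sites, as were most other changes. High shares were found at 3 of 1284 possible A-to-G sites at 30 days (0.234%), against 56 of 14804 over all changes (0.378%). At 180 days they were found at 0 of 812 (0.00%), against 18 of 8648 (0.208%). C-to-T held 29 of the 56 sites at 30 days and T-to-G 11. The 3 A-to-G sites were hsa-miR-374a* A9G and hsa-miR-379 A10G, where the entry itself was nearly unread, and mmu-miR-411 A5G. miR-411, miR-376c and miR-379 come from the large imprinted miRNA cluster between DLK1 and DIO3. mmu-miR-411 A5G, in the seed, had 28 reads with 646 of the entry at 30 days, a share of 4.15% (2.78 to 5.95). At 180 days it had 0 of 17, which allows up to 17.6%. The dog entry cfa-miR-411 begins 1 base earlier, and the same adenosine there, A6G, had 8 of 429 reads (1.86%, 0.808 to 3.64). Over tags of any length it was 50 of 1635 (3.06%, 2.28 to 4.01) against 0 of 66, which allows up to 4.55%. The difference between the libraries was therefore not detectable at this depth.

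hsa-miR-376c A6G, also in the seed, had 10 reads with 61 of the entry at 30 days, a share of 14.1% (6.97 to 24.4), under the 100 reads required for a call. All the other A-to-G changes of that entry together had 1 read. At 180 days it had 0 of 13 reads, which allows up to 23.1%. miR-379 is known to be edited at position 5. Since pig reads carried A10G, the tag with both A5G and A10G has 2 mismatches and is no member, and it had 5 of 382 reads at 30 days (1.31%, 0.426 to 3.03) and 0 of 13 at 180 days.

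The remaining known positions had few A-to-G reads in tags of the entry's length. hsa-miR-497 A2G had 2 of 1134 and 2 of 311 reads, rno-miR-497 A2G 5 of 578 and 0 of 110, and hsa-miR-151-3p A3G 2 of 1307 and 0 of 295. hsa-miR-455-5p A17G had 1 of 157 and 0 of 4, and rno-miR-200b A5G 1 of 62 and 0 of 11. In tags of that length no A-to-G read was found at the listed position of miR-421 (entries with 32 and 47 reads at 30 days), miR-99b* (23 reads), mmu-miR-200b (90 reads) or miR-376b (1 read), and the listed miR-376a was not read in its perfect form. With tags of other lengths hsa-miR-151-3p A3G had 39 reads (0.405%) and 7 (0.319%), and rno-miR-497 A2G 7 (0.353%) and 3 (0.602%). hsa-miR-497 A2G, counted largely on the same tags, stood at 0.352% and 0.599%. mmu-miR-99b* A3G had 5 A-to-G reads beside 256 of the entry's form at 30 days (1.92%) and mmu-miR-200b A5G 1 beside 198 (0.503%). rno-miR-200b A5G fell to 0.521% and hsa-miR-455-5p A17G to 0.358% at 30 days. At the entry's length, 20 entries had A at a known position, and A-to-G was read in 49 of 4189 reads (1.17%) at 30 days and 2 of 803 (0.249%) at 180 days. Of the 49 reads, 28 were of mmu-miR-411 and 10 of hsa-miR-376c, which had only 17 and 13 reads at 180 days. The pooled shares thus rest on different mixes of entries and do not compare the libraries.

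The other A-to-G sites with the highest lower limits were not on that list. hsa-miR-214 A6G, in the seed of a mesenchymal miRNA, had 23 of 1518 reads at 30 days (1.52%, 0.963 to 2.27) and 1 of 141 at 180 days. hsa-miR-504 A15G had 12 of 672 (1.79%) and 3 of 64 (4.69%), hsa-miR-532-5p A15G 15 of 1321 (1.14%) and 1 of 157, and cfa-miR-374a A6G 0.641% and 0.805%. With tags of other lengths, hsa-miR-504 A15G fell to 0.673% at 30 days. bta-let-7e A19G (121 reads, 0.694%, and 6 reads, 0.615%) rose to 1.52% at 30 days on the same counting. mmu-miR-1 A14G stood at 0.509% and 0.381%, hsa-miR-99a A15G at 0.417% and 0.232%, and bfl-miR-100 A15G at 0.489% and 0.362%. cel-let-7 A17G, with 1961 and 39 reads, stood at 0.380% and 0.0819%, and its tag is 1 mismatch from let-7b.

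Pooled over all entries, A-to-G was not the leading change. A-to-G was read at 0.0906% of the adenosines at 30 days and 0.0824% at 180 days. A-to-C, the leading change of A, was at 0.238% and 0.273%. C-to-T was at 0.283% and 0.386%, T-to-C at 0.120% and 0.156%, and G-to-A at 0.0315% and 0.0316%. Single sites set some of these values. Without the sites of 1% or more, C-to-T was at 0.204% and 0.205%, A-to-T fell from 0.165% and 0.114% to 0.0254% and 0.0404%, and C-to-G from 0.109% and 0.247% to 0.0192% and 0.0210%. On that basis the 180-day rate over the 30-day rate was 1.01 (0.972 to 1.05) for C-to-T, 0.901 (0.861 to 0.943) for A-to-G, 1.32 (1.27 to 1.38) for G-to-T and 1.70 (1.61 to 1.80) for T-to-A. By the base before it, A-to-G on the same basis was most frequent after G, at 0.120% and 0.112%. A-to-C was also most frequent after G, at 0.427% and 0.400%. By the base that follows, pooled A-to-G was most frequent before T at 30 days (0.132%) and before A at 180 days (0.118%). Before G it stood at 0.0775% and 0.0788%. The 30-day lead of T was not kept in medians over sites with 1000 or more reads. These were 0.0704% before T, 0.0762% before A and 0.0767% before G. The single site cel-let-7 A17G held 1961 of the 7440 pooled reads before T. At 180 days A also led by the median (0.0842%). A preference of editing for neighbouring bases was not tested.

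By position, mismatches at positions 2 to 8 were read at 0.243% of bases at 30 days and 0.314% at 180 days, and from position 9 on at 0.320% and 0.390%. Without the sites of 1% or more these came to 0.214% against 0.225% at 30 days and 0.262% against 0.260% at 180 days, where the order turned. A further setting left out tags that match another entry exactly or lie 1 mismatch from another entry of the same length. Under it the order turned at 30 days (0.244% against 0.221%) and not at 180 days (0.313% against 0.325%). Among positions 2 to 22 (position 23 had 29 reads at 30 days and 1 at 180 days), position 16 was the highest at 30 days, at 0.893%, and position 10 at 180 days, at 1.30%. Without the sites of 1% or more, which include bfl-miR-100 A16T and hsa-miR-509-5p C10G, they fell to 0.215% and 0.354%. Position 3 was then the highest at 30 days (0.400%) and position 6 at 180 days (0.482%, against 0.262% at 30 days).

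At position 3, A3C of let-7 entries took 11201 of 19680 member reads at 30 days and 726 of 1634 at 180 days. cel-let-7 A3C, whose entry has the sequence of let-7a, had 2879 reads (0.557%) at 30 days and 192 (0.402%) at 180 days. hsa-let-7c A3C had 3125 (0.627%) and 120 (0.473%), and hsa-let-7b A3C 1726 (0.658%) and 86 (0.565%). The other most read members were hsa-miR-99a A15C (2130 reads, 0.708%, and 188, 0.964%), mmu-miR-199a-3p T20G (1588, 0.545%, and 65, 0.298%, or 0.303% and 0.180% with tags of other lengths) and cel-let-7 T16C (1694, 0.328%, and 72, 0.151%). The T16C tag is 1 mismatch from the listed hsa-let-7d.

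At position 6, in the seed of let-7, all 3 changes of T took larger shares at 180 days. This was seen in each of the 10 let-7 entries with 1000 or more perfect reads in both libraries. Dividing the 180-day share by the 30-day share gave a median of 4.35 for T6A (1.35 to 5.65), 2.13 for T6C (1.85 to 3.05) and 2.63 for T6G (1.85 to 6.44). It stayed above 1 in 10 of 10 entries for each change when shares were divided by the library's mismatch rate, with a lowest value of 1.09. The 30-day shares of T6A lay between 0.0388 and 0.0726%. These entries share most of their bases and their library, so they are not independent. hsa-let-7d T6A, at the top of the T6A range, went from 95 reads (0.0555%) to 53 (0.313%). cel-let-7 T6C went from 1136 reads (0.221%) to 207 (0.433%). Of 7 other entries with T at position 6, the ratio was above 1 in 4 for T6A (median 2.56) and in 5 for T6C (median 1.54). For T6G only 4 of the 7 had a ratio, which was above 1 in 2 (median 2.03). mmu-miR-1 T6G, with 0 reads at 30 days and 2 at 180 days, had none. Each of these sites had at most 18 member reads at 180 days. The difference between let-7 and these was not tested.

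The age ratio of the share, 180 over 30 days, was examined at 1532 sites with at least 100 reads in each library and 20 member reads in all. It was called at 2 or more, or 0.5 or less, with its exact conditional interval excluding 1. By this rule 178 sites were higher at 180 days (11.6%) and 45 were lower (2.94%), and the median ratio was 1.08. Member reads per 100 perfect reads were 5.50 and 6.83 in the libraries, and with each share divided by that rate 97 sites were higher and 104 lower. With the rate taken without the sites of 1% or more, at 4.16 and 4.92, they were 112 and 83. The balance of higher and lower sites thus moved with the scaling. By change, 39 of 270 A-to-C sites were higher and 3 lower, 24 of 82 T-to-A sites higher and 2 lower, and 18 of 88 G-to-C sites higher and 0 lower. C-to-T had 5 higher and 4 lower of 205, and A-to-G 4 higher and 8 lower of 179.

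The largest ratios rested on few reads of abundant entries. dre-miR-140* G21C went from 10 reads (0.00980%) to 13 (0.175%), a ratio of 17.8 (7.22 to 45.4), and mmu-miR-191 G6T from 13 reads (0.0212%) to 12 (0.192%), a ratio of 9.05. Other changes of G followed: hsa-let-7e G11T at 7.58, oan-miR-199 G18C at 6.81, cfa-miR-107 G16C at 6.60 and mmu-miR-199a-3p G19C at 5.33. bta-let-7e G12A was at 5.53 and hsa-let-7d T6A at 5.65. With tags of other lengths, dre-miR-140* G21C stood at 0.00523% and 0.0915%, hsa-let-7e G11T at 0.171% and oan-miR-199 G18C at 0.0246% at 180 days, and mmu-miR-199a-3p G19C at 0.0143% at 30 days. The lowest were sites with no member read at 180 days. Beside gga-miR-26a T10C and hsa-miR-532-5p C20G, mmu-let-7i T19G had a ratio of 0 with an exact upper limit of 0.615. The ratios of hsa-miR-99a T11G, bta-miR-99a T19G, hsa-miR-101 A7G, mmu-miR-140* C16T and mmu-miR-199a-3p T10A had upper limits of 0.742 to 0.812. These limits hold for tags of the entry's length only. With tags of other lengths mmu-miR-140* C16T stood at 0.231% and 0.204% and hsa-miR-101 A7G at 0.0564% and 0.0485%, so their contrast was lost. On the same counting bta-miR-99a T19G stood at 0.0486% and 0.0113%, hsa-miR-99a T11G at 0.0225% and 0.00679%, mmu-miR-199a-3p T10A at 0.0204% and 0.0103%, and mmu-let-7i T19G at 0.504% and 0 of 1531 reads.

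In RPM, members with 20 or more reads moved much as other tags did. Of 1586 members that reached 20 reads in the 2 lists together, 232 stood higher at 180 days (14.6%) and 158 lower (9.96%) by the same rule. With 100 or more reads required, 60 stood higher and 103 lower, and whether other tags did so at that limit was not tested. Among all 6888 listed tags with 20 or more reads, 1175 were higher (17.1%) and 722 lower (10.5%). The median log2 ratio was 0.08 for both.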

How the data were processed

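Small RNAs of 18 to 30 nucleotides from whole testis of 3 pooled boars per age were sequenced on a Solexa instrument, per the labels' protocols. The deposited lists give, for each tag, a raw read count, the miRNA entry it was assigned to, the mismatch count (0 to 2) and an alignment score as the authors wrote them. No aligner, miRNA database release or build is named in the labels or lists (not given in the sources used here), so coordinates are left out. The lists hold 7525725 and 852209 reads, and reads matching no entry were not analysed here.

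Tags and entries were compared base by base with Python 3.11.15. Perfect tags were found by sequence. Exact (Clopper-Pearson) 95% intervals and exact conditional intervals of ratios came from scipy 1.17.1, and edgeR 4.0.16 gave an alternative scaling (TMM) only. The calculation was tested on simulated data. Members, lists and rules were chosen with earlier results of these data known. Named sites are the 10 most read members of each library, up to 12 A-to-G and 10 other sites by lower limit, up to 8 age ratios each way and the known editing positions. miR-26a and let-7i in their longer entries, miR-125, miR-10a, miR-30, miR-181, miR-221, miR-202* and the linked changes of miR-202-5p were chosen after their values were seen. The reference table matched gene names of Sscrofa11.1 by symbol. Alternatives varied the positions, minimum reads, thresholds, tag lengths and scaling.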

Additional observations from a re-analysis of the deposited data

How the results depend on the processing

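No paired analysis was possible because each age has 1 library, and for the same reason no replicate could be left out. Member reads, 3.49% and 4.06% of reads at 30 and 180 days, came to 7.40% and 8.88% with every position counted. They came to 3.13% and 3.65% with positions 3 to length minus 4. Without tags that match another entry or lie 1 mismatch from one, they came to 2.74% and 3.59%. Without tags of 1 read the 180-day value was 3.94%. The mismatch rate at positions 2 to 8 was 0.221% and 0.272% as a median over entries, 0.214% and 0.262% without sites of 1% or more, and 0.248% at 30 days without let-7 and miR-98. From position 9 on it was 0.256% and 0.270%, 0.225% and 0.260%, and 0.406% and 0.473% under these 3 settings. The A-to-G rate was 0.0782% and 0.0746% as a median over entries. At 30 days it was 0.0846% without let-7 and 0.0890% without sites of 1% or more. Without tags that match another entry or lie 1 mismatch from one, the 30-day rate was 0.0849%.

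High-share sites numbered 155 and 71 at a limit of 0.5%, 27 and 8 at 2%, 27 and 4 with 1000 or more reads, and 397 and 221 with tags of other lengths included; with 50 or more reads the 180-day count was 30. Age ratios gave 97 higher and 104 lower sites with shares divided by the library rate, and 112 and 83 with the rate taken without sites of 1% or more, an alternative added after seeing the data. Abundance gave 60 higher and 103 lower members with 100 or more reads, and 549 higher with no minimum. The cause of these moves was not tested. TMM scaling shifted every log2 abundance ratio by -0.11. The balance of higher and lower calls turned for age ratios scaled by the rate of all members and for abundance with 100 or more reads, and the order of positions 2 to 8 and later ones turned as the rates show. Of 91 values of named sites, 14 moved by over 1.5 times with tags of other lengths. Perfect tags under the same name were the same tags, since each entry has 1 name. Leaving out tags found in pig precursors was not run, as no precursor sequences were used here. At 180 days the depth left known editing positions of miR-411 and miR-376c with 17 and 13 reads.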
